A study of Homo sapiens with 24 samples.

Results

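The Fanconi anemia core complex and its substrate pair, FANCI and FANCD2, were followed through RNA sequencing of 2 human cancer cell lines. The 10 genes were taken by name, as the rows of the deposited count table with the symbols FANCA, FANCB, FANCC, FANCE, FANCF, FANCG, FANCL, FANCM, FANCD2 and FANCI. All 10 were present among 28307 genes, and all 10 passed the expression filter in both lines. SUM159 is a breast cancer line and SW620 a colon cancer line. Each was cultured for 30 h with nifuroxazide (NIF), a nitrofuran antibiotic, or with its vehicle DMSO, and was then sorted by aldehyde dehydrogenase activity. Cells with high activity (ALDHbr, ALDpos in the sample names), which the labels call cancer stem cells, were kept apart from cells with low activity (ALDHneg). This gave 8 groups of 3 libraries, each from an independent biological replicate. SW620 and SUM159 each stand for their tissue as a single line, and the labels name no genetic change in either.

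Total counts ran from 30253187 to 43127948 per library (median 36520935). Markers set the lines apart as labelled, with 10 colon epithelial genes summing to between 2219 and 2795 CPM (read counts scaled to a common library size) in SW620 and to between 0.198 and 8.77 CPM in SUM159, while 10 mesenchymal genes summed to between 8864 and 11480 CPM in SUM159 and to between 884 and 1247 CPM in SW620. ALDH1A1, which encodes an aldehyde dehydrogenase that such a sort selects, was higher in ALDHbr cells under DMSO, by a log2 fold change of 8.11 ± 0.29 (SE, adjusted p = 1.63e-10) in SUM159 and 0.54 ± 0.05 (SE, adjusted p = 1.12e-05) in SW620. In SW620 the sorted populations shared a high level, at 1397 ± 50.3 CPM in ALDHbr and 956 ± 18.3 CPM in the ALDHneg group (SD, n = 3 each), whereas in SUM159 ALDHneg cells it was close to 0. Adjusted p-values throughout are those of edgeR's quasi-likelihood test with Benjamini-Hochberg adjustment over all genes tested, with a threshold of 0.05, and a gene past it is said to be called.

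The Fanconi anemia pathway repairs DNA interstrand crosslinks, which covalently join both strands and block replication. FANCM recognises the stalled fork and helps to bring in the core complex, in which FANCB, FANCL and an accessory protein form the catalytic module, FANCA and FANCG are bound together, and FANCC, FANCE and FANCF form the module that contacts the substrate. FANCL is the ubiquitin ligase of the complex, and it places a single ubiquitin on FANCD2 and on FANCI, which then clamp together on DNA and call in nucleases, translesion polymerases and homologous recombination. Inherited loss of most of these genes causes Fanconi anemia, and cells that lack them are sensitive to crosslinking agents. Transcripts of many DNA replication and repair genes rise around S phase of the cell cycle.

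Positions are given on GRCh38, the build named in the submitters' processing notes, from RefSeq (GRCh38.p14). The substrate pair are FANCI (Entrez Gene 55215, chr15:89243979-89317259) and FANCD2 (Entrez Gene 2177, chr3:10026437-10101932). The catalytic module holds FANCL (Entrez Gene 55120, chr2:58159243-58241380) and FANCB (Entrez Gene 2187, chrX:14689524-14873069). The FANCA and FANCG module holds FANCA (Entrez Gene 2175, chr16:89737549-89816647) and FANCG (Entrez Gene 2189, chr9:35073839-35079942). The substrate-contacting module holds FANCC (Entrez Gene 2176, chr9:95099054-95317709), FANCE (Entrez Gene 2178, chr6:35452338-35467102) and FANCF (Entrez Gene 2188, chr11:22622533-22625823), and the fork translocase is FANCM (Entrez Gene 57697, chr14:45135930-45200890). The span of FANCI overlaps POLG by 940 bases, that of FANCA overlaps ZNF276 by 3377 bases, that of FANCL overlaps VRK2 by 678 bases and that of FANCC overlaps AOPEP by 51171 bases. Since the strand setting of the counting is not given in the sources used here, reads in these overlaps may have been assigned to either gene. FANCD2OS, inside the span of FANCD2, and GLRA2, which overlaps FANCB, had at most 3 counts in any library. FANCD2 also has pseudogene copies (FANCD2P1 and FANCD2P2) with no row in the table, so that reads shared with them may sit in the FANCD2 count.

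The study treats the transcription factor STAT3 as a regulator of these genes, and their promoters are therefore shown for the genes that hold the STAT letters, beside FANCA, which does not. Over the 250 bases before the annotated start (RefSeq, GRCh38.p14), 9 of the 10 genes were matched, all but FANCI. FANCI is the gene at whose promoter the study measured STAT3 binding and reporter activity. The study also reported STAT3 motifs in promoters of Fanconi anemia genes, and higher transcripts of those tested after IL-6, an activator of the STAT3 pathway. The window of FANCL (chr2:58241326-58241575) reaches into the gene span given above. Of the 2 promoters of FANCC, only the first listed was searched. The letters TTCNNNGAA, which read the same on both strands, were found in FANCD2, beginning 245 bases before the start, and in FANCM, 88 bases before it, which is 2 of 9 genes, against 6.78% of 27305 promoters. The E2F letters TTTNNCGC, searched on both strands, were in FANCA and FANCC (5.93% of promoters), GGCGGGAA in FANCL (2.77%), CCAAT in FANCA, FANCF and FANCM (33% of promoters) and TTTGAA in FANCC (13.6%). TTTNNCGC and GGCGGGAA can share bases. These are matches of letters in a fixed window, and the data hold no measurement of binding there. In the sequences below, written 5′ to 3′ on the strand of the gene and ending at the base before the start, capitals mark the STAT letters, the E2F letters (in FANCA on the opposite strand) and CCAAT or its complement ATTGG.
FANCD2, chr3:10026187-10026436, plus strand: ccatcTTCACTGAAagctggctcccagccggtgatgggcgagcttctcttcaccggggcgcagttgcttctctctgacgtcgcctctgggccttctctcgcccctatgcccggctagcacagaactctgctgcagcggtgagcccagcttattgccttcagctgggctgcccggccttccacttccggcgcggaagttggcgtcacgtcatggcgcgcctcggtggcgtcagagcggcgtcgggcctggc
FANCM, chr14:45135680-45135929, plus strand: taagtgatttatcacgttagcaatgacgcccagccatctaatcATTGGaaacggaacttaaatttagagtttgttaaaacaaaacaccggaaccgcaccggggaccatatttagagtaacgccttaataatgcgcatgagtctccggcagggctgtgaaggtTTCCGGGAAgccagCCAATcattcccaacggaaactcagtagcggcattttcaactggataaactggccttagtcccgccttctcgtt
FANCA, chr16:89816648-89816897, minus strand: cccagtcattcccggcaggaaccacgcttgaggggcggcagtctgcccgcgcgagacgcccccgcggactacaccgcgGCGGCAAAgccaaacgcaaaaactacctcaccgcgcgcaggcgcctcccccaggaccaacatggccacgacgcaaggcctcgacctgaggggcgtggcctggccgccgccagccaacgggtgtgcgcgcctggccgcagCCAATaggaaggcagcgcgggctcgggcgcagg

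The lines were first compared under DMSO, to see what each holds of the complex before treatment. The pathway was not simply higher in one line. FANCI, FANCL, FANCF and FANCC were higher in SW620, FANCD2, FANCE, FANCM and FANCB were higher in SUM159, and FANCA and FANCG lay close together. The substrate pair split. FANCI stood at 240.5, 249 and 241 CPM in the SW620 ALDHbr libraries against 113, 115 and 114 CPM in SUM159, a log2 fold change of 1.10 ± 0.05 (SE, adjusted p = 6.47e-16). FANCD2 went the other way, at 43.6, 41.3 and 40.5 CPM in SW620 against 91.3, 90.5 and 92.9 CPM in SUM159, a log2 fold change of -1.13 ± 0.06 (SE, adjusted p = 1.99e-14). For both genes the 12 libraries of one line lay apart from the 12 of the other.

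**Figure D1:**
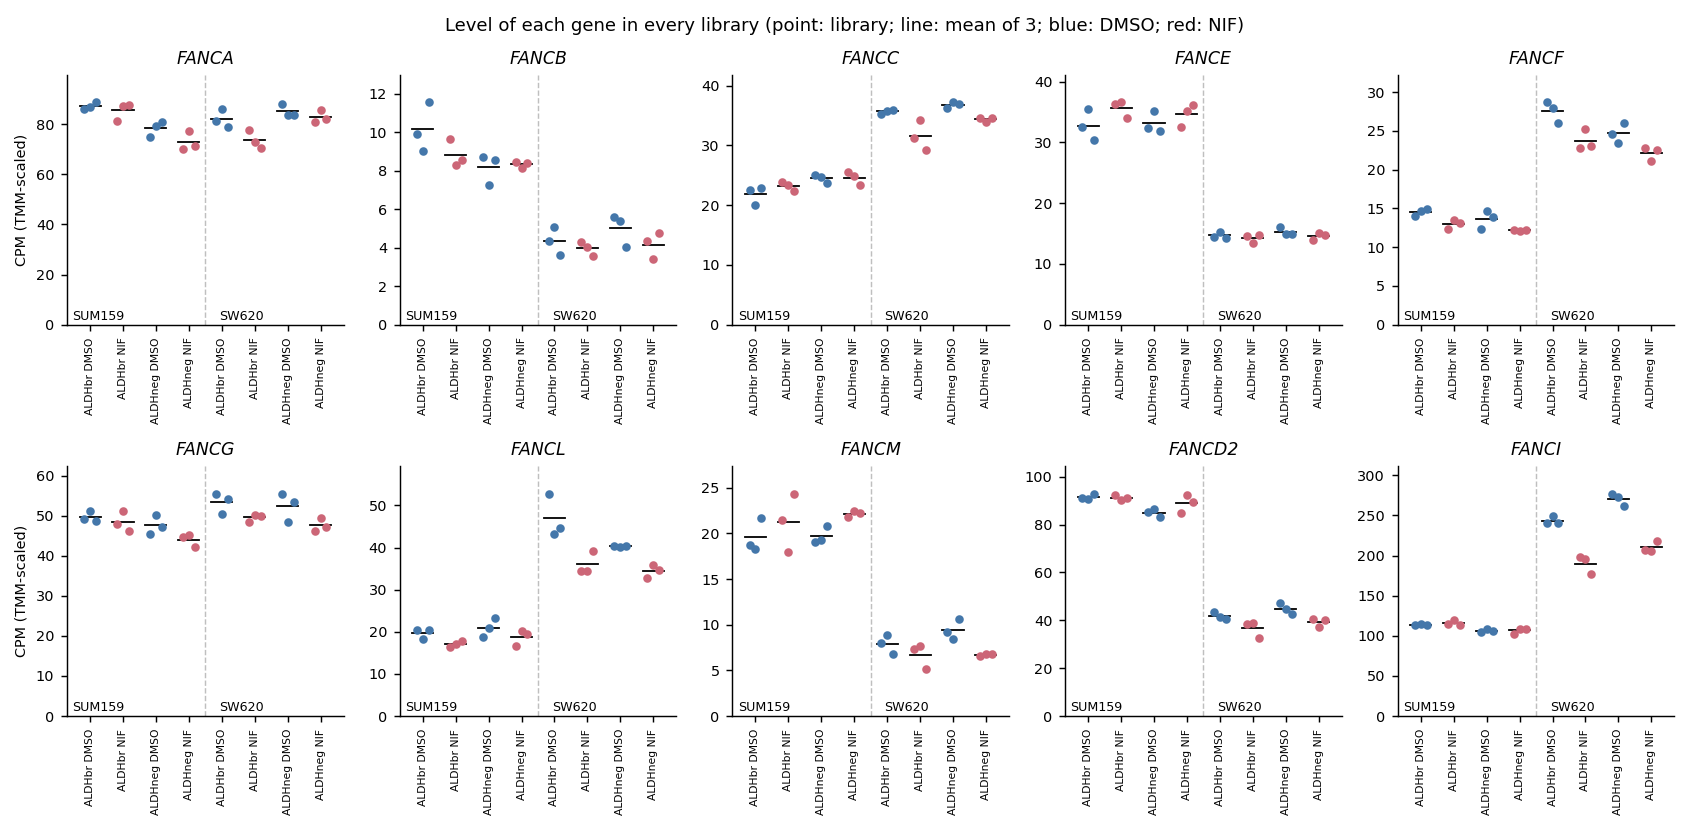
Level of each of the 10 genes in all 24 libraries, in CPM scaled by TMM (vertical axes from 0, a different scale for each gene). Points are libraries, lines are the means of 3, blue is DMSO and red is NIF, with SUM159 left and SW620 right of the dashed line. FANCI lies at 103 to 119.9 CPM in SUM159 and at 177 to 277 CPM in SW620, whereas FANCD2 lies at 83.0 to 92.9 CPM in SUM159 and 32.6 to 47.2 CPM in SW620.

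Within the core complex, the ligase FANCL was the member most raised in SW620 ALDHbr cells, at 52.8, 43.3 and 44.7 CPM against 20.4, 18.3 and 20.5 CPM in SUM159, with a log2 fold change of 1.25 ± 0.09 (SE, adjusted p = 3.14e-12). Its partner in the catalytic module, FANCB, was lower, at 4.34, 5.09 and 3.65 CPM against 9.93, 9.05 and 11.6 CPM, with a log2 fold change of -1.23 ± 0.14 (SE, adjusted p = 2.36e-08). FANCB was the least counted gene of the 10, with between 106 and 457 reads per library. The substrate-contacting module divided as well. FANCF had a log2 fold change of 0.92 ± 0.07 (SE, adjusted p = 2.4e-11) and FANCC of 0.71 ± 0.06 (SE, adjusted p = 3.45e-10), both higher in SW620, whereas FANCE was lower, by -1.16 ± 0.07 (SE, adjusted p = 2.17e-13). FANCM was the lowest relative to SUM159, at 8.02, 8.82 and 6.80 CPM against 18.8, 18.3 and 21.7 CPM, with a log2 fold change of -1.32 ± 0.13 (SE, adjusted p = 9.35e-10).

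In ALDHbr cells 8 of the 10 genes were called between the lines, 4 higher and 4 lower in SW620. Of all 16271 genes tested, 81.3% were called, 39.6% higher and 41.7% lower, so the share of members was near that of genes in general. In ALDHneg cells 9 of 10 were called, 5 higher and 4 lower, against 81.2% of all genes, 38.5% higher and 42.7% lower. The 8 genes called in ALDHbr cells went the same way there, with FANCI at a log2 fold change of 1.35 and FANCD2 at -0.92. The added gene was FANCG, at 0.14 ± 0.06 (SE, adjusted p = 0.0409), and FANCA was at 0.12 ± 0.06 (SE, adjusted p = 0.0503). The call of FANCG was kept under 3 of 10 alternatives. It was lost with RLE size factors, with scaling by library size, without a filter on low counts, and without replicate 1 or 3 of either line. With scaling by library size alone, the median of all genes was -0.20 in ALDHbr and -0.24 in ALDHneg cells. With scaling by TMM it was -0.05 and -0.07. Under library-size scaling FANCG and FANCA turned negative in ALDHneg cells, FANCG to -0.03 and FANCA to -0.05, and FANCG also in ALDHbr cells. In ALDHbr cells FANCA was called lower with that scaling and by DESeq2, and FANCG was called higher without SW620 DMSO replicate 2.

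Levels of different genes were compared per kilobase of transcript (GENCODE lengths), on the ALDHbr cells under DMSO. In SUM159 the order was led by FANCI (24.0 ± 0.208 CPM per kb, SD, n = 3), FANCG (19.4), FANCD2 (18.0) and FANCA (16.0), whose libraries did not overlap. FANCE (12.7) and FANCL (11.9) followed and overlapped, as did FANCC (4.75) with FANCF (4.42) and FANCB (3.37) with FANCM (2.75). In SW620 FANCI (51.5 ± 1.03 CPM per kb) was followed by FANCL (28.3), FANCG (20.9) and FANCA (15.1). FANCF (8.37) and FANCD2 (8.21) overlapped, and FANCC (7.78), FANCE (5.70), FANCB (1.44) and FANCM (1.10) came last, the last pair overlapping. FANCD2 thus held the third place in SUM159 and the sixth in SW620.

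The ratio of FANCI to FANCD2 reads per kb, a measure chosen after the levels were seen, needs no scaling between libraries. It lay between 1.27 and 1.43 in the 12 SUM159 libraries and between 5.40 and 6.59 in the 12 SW620 libraries. In SW620 it was 6.28 ± 0.299 in ALDHbr cells under DMSO and 5.59 ± 0.228 under NIF, and 6.50 ± 0.153 and 5.77 ± 0.220 in ALDHneg cells (SD, n = 3 each). The NIF libraries of SW620 lay below the DMSO libraries of the same population in both cases. In SUM159 the means of the 4 groups ran from 1.29 to 1.37. The NIF libraries of SUM159 ALDHneg cells, at 1.267 to 1.312, also lay below their DMSO libraries, at 1.318 to 1.368. In SUM159 ALDHbr cells the ratios under NIF and DMSO overlapped. These ratios are a description, and no test was made on them.

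The next comparison asked whether NIF lowers the transcripts of the complex. In SW620 part of it was lower under NIF, by up to 29.0%. All 10 genes had a negative log2 fold change in both populations, and FANCI, FANCD2 and FANCL were called lower in both. The clearest was FANCI, which lost 22.1% of its level in ALDHbr and 22.8% in ALDHneg cells. In ALDHbr cells FANCI stood at 198, 195 and 177 CPM under NIF and 240.5, 249 and 241 CPM under DMSO, with no overlap and a log2 fold change of -0.36 ± 0.05 (SE, adjusted p = 9.24e-05). In ALDHneg cells it stood at 207, 206 and 218 CPM against 277, 273 and 261 CPM, again without overlap, a log2 fold change of -0.37 ± 0.05 (SE, adjusted p = 5.78e-05). FANCI remained called under all 12 alternatives in each population, with log2 fold changes from -0.39 to -0.31 and from -0.43 to -0.35. Since the RNA came from many sorted cells at once, a lower level in some cells and in all of them cannot be told apart.

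FANCD2, the other substrate, also fell, with a smaller fold change, and the difference between both genes was not tested. In ALDHbr cells it stood at 38.5, 38.9 and 32.6 CPM under NIF and 43.6, 41.3 and 40.5 CPM under DMSO, a log2 fold change of -0.19 ± 0.07 (SE, adjusted p = 0.0494). In ALDHneg cells it stood at 40.4, 37.2 and 40.2 CPM against 47.2, 44.6 and 42.8 CPM, a log2 fold change of -0.20 ± 0.07 (SE, adjusted p = 0.0381). The groups did not overlap in either population, but the adjusted p-values were close to the threshold, and FANCD2 kept its call under 5 of 12 alternatives in each. In ALDHneg cells it was lost without any one of the 6 libraries, and in ALDHbr cells without any one of them but NIF replicate 2.

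Of the core complex, the ligase FANCL moved most in ALDHbr cells. It stood at 34.5, 34.5 and 39.1 CPM under NIF and 52.8, 43.3 and 44.7 CPM under DMSO, a loss of 23.4%, with a log2 fold change of -0.38 ± 0.08 (SE, adjusted p = 0.00116), and was called under all 12 alternatives. In ALDHneg cells FANCL stood at 32.9, 35.8 and 34.6 CPM against 40.5, 40.1 and 40.4 CPM, with a log2 fold change of -0.24 ± 0.08 (SE, adjusted p = 0.0227), a call kept under 7 of 12 alternatives. FANCF, FANCC and FANCA were called lower in ALDHbr and not in ALDHneg cells. FANCF stood at 22.9, 25.2 and 23.1 CPM under NIF and 28.7, 28.0 and 25.9 CPM under DMSO, with a log2 fold change of -0.22 ± 0.07 (SE, adjusted p = 0.0182). FANCC stood at 31.2, 34.3 and 29.2 CPM against 35.3, 35.8 and 36.0 CPM, at -0.18 ± 0.06 (SE, adjusted p = 0.0294), and FANCA at 77.7, 72.8 and 70.3 CPM against 81.1, 86.1 and 79.0 CPM, at -0.16 ± 0.06 (SE, adjusted p = 0.0314). In ALDHneg cells their log2 fold changes were -0.17 for FANCF, -0.11 for FANCC and -0.05 for FANCA, and the test of the difference between the populations, below, called none of them. In ALDHbr cells the call was kept under 9 of 12 alternatives for FANCF, 7 for FANCA and 6 for FANCC. It was lost without NIF replicate 1, NIF replicate 3 or DMSO replicate 1 for FANCF, without NIF replicate 2 or 3 or DMSO replicate 1 or 2 for FANCA, and without NIF replicate 1 or 3 or any DMSO library for FANCC. FANCA and FANCC also lost it without a filter on low counts.

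The translocase FANCM was called in ALDHneg cells, at 6.56, 6.84 and 6.75 CPM under NIF and 9.17, 8.48 and 10.6 CPM under DMSO, a log2 fold change of -0.49 ± 0.14 (SE, adjusted p = 0.00971) and the most negative of the 10 there. The call was lost without DMSO replicate 3, the highest of these libraries (adjusted p = 0.061). In ALDHbr cells FANCM was at 7.34, 7.72 and 5.14 CPM against 8.02, 8.82 and 6.80 CPM, with overlap and a wide 95% interval of -0.53 to 0.08 around -0.23. FANCB (-0.14 in ALDHbr and -0.28 in ALDHneg cells), FANCE (-0.04 and -0.08) and FANCG (-0.11 and -0.15) were called in neither population.

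In all, 6 of 10 genes were called in SW620 ALDHbr cells, all lower, against 43.3% of 13953 genes in either direction and 21.9% lower. In ALDHneg cells 4 of 10 were called, all lower, against 45.1% and 22.7%. The NIF and DMSO libraries did not overlap for 7 genes in ALDHbr cells (45.1% of all genes) and for 6 in ALDHneg cells (63.4%). The median log2 fold change of the 10 was -0.19 and -0.18, beside -0.01 for all genes tested in each population. The counts depended on single libraries. In ALDHbr cells 2 genes were called without NIF replicate 3 or DMSO replicate 1, and 3 without NIF replicate 1 or DMSO replicate 2 or with no filter on low counts. In ALDHneg cells 1 was called without DMSO replicate 3, 2 without DMSO replicate 1, NIF replicate 1 or NIF replicate 3, and 7 with library-size scaling.

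Cell cycle genes moved with them. Of 43 S phase genes 35 were called lower in SW620 ALDHbr cells and 0 higher (median log2 fold change -0.37), and of 54 G2/M genes 45 lower and 1 higher (median -0.42). In ALDHneg cells 28 S phase genes were lower and 1 higher (median -0.24), and 47 G2/M genes lower and 0 higher (median -0.60). Both lists lay further below 0 than the 10 genes in each population, and none of the 10 is in either list. The part of the cell cycle in the lower FANCI, FANCD2 and FANCL was not tested. Of the overlapping genes, POLG was at 0.11 ± 0.06 (SE, adjusted p = 0.122) in ALDHbr cells, against the fall of FANCI, and VRK2 at 0.08, against that of FANCL. ZNF276, at -0.22 ± 0.05 (SE, adjusted p = 0.00372), and AOPEP, at -0.28 ± 0.10 (SE, adjusted p = 0.0428), were called lower there, as were FANCA and FANCC. In ALDHneg cells ZNF276, at -0.24 ± 0.05 (SE, adjusted p = 0.00159), and AOPEP, at -0.43 ± 0.10 (SE, adjusted p = 0.00407), were called lower while FANCA and FANCC were not, and in SUM159 ALDHbr cells AOPEP was at -0.43 ± 0.08 (SE, adjusted p = 0.00985) with FANCC at 0.08. The part of shared reads was not tested.

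**Figure D2:**
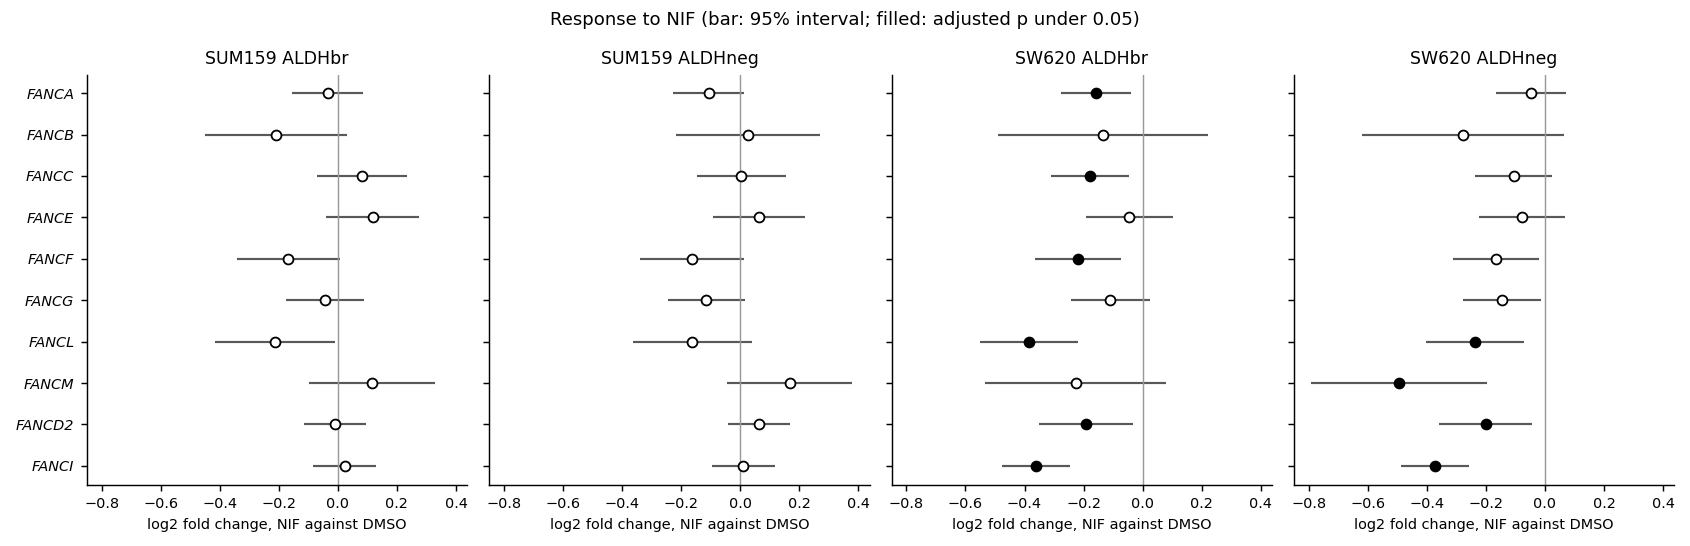
Log2 fold change of each gene under NIF against DMSO in the 4 sorted populations, with 95% intervals. Filled points passed the adjusted threshold of 0.05 and open points did not. In SW620 all 10 points lie below 0 in both populations, 6 and 4 of them filled, and in SUM159 none is filled.

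In SUM159, by contrast, no member was called in either population. FANCI stood at 115, 119.9 and 113 CPM under NIF and 113, 115 and 114 CPM under DMSO in ALDHbr cells, with the groups overlapping and a log2 fold change of 0.02 ± 0.05 (SE, adjusted p = 0.869). Its 95% interval ran from -0.08 to 0.13. FANCD2 stood at 92.3, 90.2 and 91.1 CPM against 91.3, 90.5 and 92.9 CPM, a log2 fold change of -0.01 ± 0.05 (SE, adjusted p = 0.948) with an interval of -0.12 to 0.10. The SE of FANCI was 0.05 in both lines, and falls of the size of FANCI in SW620 lay outside the SUM159 interval. In ALDHneg cells FANCI was at 0.01 (interval -0.10 to 0.12) and FANCD2 at 0.06 (interval -0.04 to 0.17).

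In SUM159 ALDHbr cells the most negative of the 10 was FANCL, at 16.4, 17.1 and 17.7 CPM under NIF and 20.4, 18.3 and 20.5 CPM under DMSO. The groups did not overlap, and the log2 fold change was -0.21 ± 0.10 (SE, adjusted p = 0.275). FANCF also lay lower without overlap, at 12.4, 13.5 and 13.1 CPM against 14.0, 14.7 and 14.9 CPM, with a log2 fold change of -0.17 ± 0.08 (SE, adjusted p = 0.323). FANCB was at -0.21, FANCG at -0.04, FANCA at -0.03, FANCC at 0.08, FANCM at 0.11 and FANCE at 0.12, all with overlap. In ALDHneg cells FANCF was at -0.16 and FANCG at -0.11, both lower without overlap, and FANCM at 0.17, higher without overlap, with NIF libraries at 21.8, 22.4 and 22.3 CPM against 19.0, 19.3 and 20.8 CPM. FANCL (-0.16), FANCA (-0.11), FANCE (0.06), FANCB (0.03) and FANCC (0.00) overlapped.

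The edgeR test thus called 0 of 10 in SUM159 ALDHbr cells, where 3.16% of 14953 genes were called, and 0 of 10 in ALDHneg cells, where 3.3% were. At an unadjusted p under 0.05 the counts were 1 (FANCL) and 0, and DESeq2 called 0 in both. SUM159 libraries that shared a replicate number also deviated together, and a fit that blocked on that number called 13.3% and 13.2% of all genes and still 0 of the 10. Without overlap were 2 genes in ALDHbr cells (23.2% of all genes) and 3 in ALDHneg cells (19.6%). The medians of the 10 were -0.02 and 0.01. In the fit without the block, 1 of the S phase genes was called higher and 0 lower in each population. Of the G2/M genes, 13 were called lower there in ALDHbr and 5 in ALDHneg cells, with none higher.

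The difference in response between the lines was then tested itself, as the NIF effect in SW620 minus that in SUM159 in a fit of all 24 libraries. FANCI differed in both populations, by -0.39 ± 0.07 (SE, adjusted p = 0.000313) in ALDHbr and -0.37 ± 0.07 (SE, adjusted p = 0.000377) in ALDHneg cells, under all 16 alternatives of each. FANCM differed in ALDHneg cells, by -0.65 ± 0.18 (SE, adjusted p = 0.00824), also under all 16, where its log2 fold change was -0.49 in SW620 and 0.17 in SUM159. FANCD2 differed in ALDHneg cells, by -0.26 ± 0.09 (SE, adjusted p = 0.0355), a call kept under 8 of 16 alternatives, and stood at -0.18 (adjusted p = 0.143) in ALDHbr cells. FANCC differed in ALDHbr cells, by -0.26 ± 0.09 (SE, adjusted p = 0.0375), a call kept under 5 of 16. For FANCL the difference was -0.17 in ALDHbr cells, with an interval of -0.43 to 0.09, and was not called. That of FANCF was -0.05 (interval -0.27 to 0.16) in ALDHbr and 0.005 (interval -0.21 to 0.22) in ALDHneg cells, called in neither. This made 2 of 10 in ALDHbr cells (23.1% of all genes, 10.7% lower) and 3 of 10 in ALDHneg cells (22.4% and 10.5%), all lower in SW620. The ALDHbr count rested on single libraries, being 1 without any one of the 3 SUM159 NIF libraries, SW620 NIF replicates 1 and 3, or DMSO replicates 1 and 2 of SUM159 and 1 and 3 of SW620.

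ALDHbr and ALDHneg cells were compared next, to ask whether the sorted populations differ in the complex and in its response. Differences were small in both lines, and the only member called was FANCA in SUM159 under NIF, at 81.3, 87.3 and 87.8 CPM in ALDHbr and 70.1, 77.2 and 71.2 CPM in the ALDHneg group, which gave a log2 fold change of 0.23 ± 0.06 (SE, adjusted p = 0.00919). The groups did not overlap, but the call was lost without ALDHneg NIF replicate 1, the lowest of these libraries (adjusted p = 0.0517). Under DMSO FANCA was at 86.0, 87.0 and 88.7 CPM against 74.7, 79.4 and 80.9 CPM, also without overlap, at 0.15 ± 0.06 (SE, adjusted p = 0.0628). With the replicate block it was called there as well (0.15, adjusted p = 0.0123), as was FANCB (0.31, adjusted p = 0.0133), whose libraries stood at 9.93, 9.05 and 11.6 CPM in ALDHbr and 8.73, 7.27 and 8.54 CPM in ALDHneg cells. FANCI, at 0.12 under NIF, was called with the block (adjusted p = 0.0437) and by DESeq2 (adjusted p = 0.0494), and not otherwise.

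Under DMSO the edgeR test called 0 of 10 in SUM159, beside 23.0% of all genes, with 4 at an unadjusted p under 0.05 and 1 by DESeq2. With the block the count was 2, beside 36.0% of all genes. Under NIF the count was 1, beside 21.9%, and with the block 2, beside 35.2%. The share of members called was below that of all genes in these fits.

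In SW620 no member was called between the populations. Under DMSO 11.3% of all genes were called, 3 of the 10 had an unadjusted p under 0.05, and DESeq2 called 1, FANCI. FANCL was at 52.8, 43.3 and 44.7 CPM in ALDHbr and 40.5, 40.1 and 40.4 CPM in ALDHneg cells, at 0.22 ± 0.08 (SE, adjusted p = 0.0785), FANCI at -0.15 (adjusted p = 0.0744) and FANCF at 0.16 (adjusted p = 0.131). Without ALDHbr DMSO replicate 2, FANCL and FANCI were called. Of the cell cycle lists in this contrast, 7 S phase genes were higher and 19 G2/M genes lower in ALDHbr cells, with none the other way, and their part in the values of FANCL and FANCI was not tested. FANCI thus leaned to ALDHneg cells in SW620 and to ALDHbr cells in SUM159, neither past the threshold of the edgeR test without the block, and the difference between the lines in this contrast was not tested. Under NIF 6.67% of all genes were called and none of the 10, with 2 at an unadjusted p under 0.05 and 1 by DESeq2. That gene was FANCA, at -0.17 ± 0.06 (SE, adjusted p = 0.0948), which was also called without ALDHbr NIF replicate 1.

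Whether NIF acted differently on the populations was tested as the difference of its effects. No member was called in SUM159, where 0.0% of all genes were, or in SW620, where 0.00717% were (1 gene of 13953). None of the 10 had an unadjusted p under 0.05 in either line, and DESeq2 called none. For FANCI the difference was 0.01 in SUM159, with an interval of -0.14 to 0.16, and 0.01 in SW620, with an interval of -0.15 to 0.17. For FANCL in SW620 it was -0.15 (-0.38 to 0.09), and for FANCM 0.27 (-0.16 to 0.70).

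**Figure D3:**
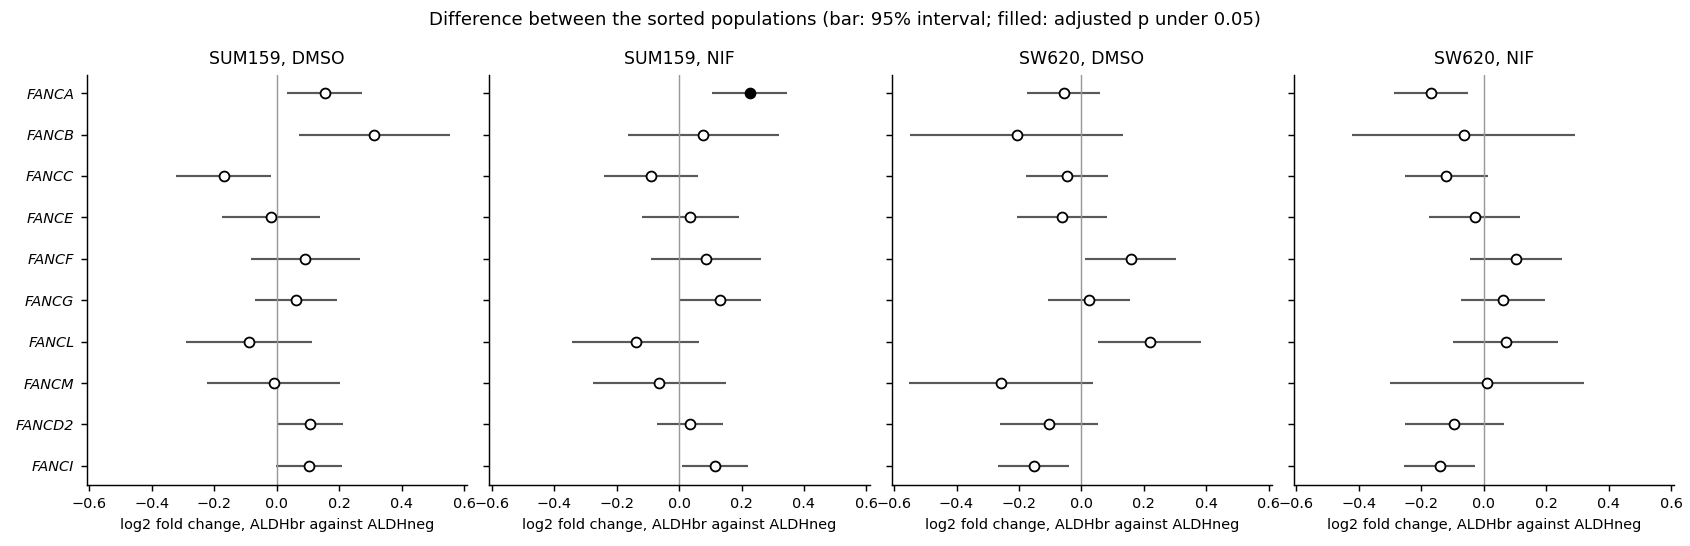
Log2 fold change of each gene in ALDHbr against ALDHneg cells, under DMSO and under NIF, with 95% intervals. Filled points passed the adjusted threshold of 0.05. FANCA in SUM159 under NIF, at 0.23, is the filled point, and FANCL in SW620 under DMSO, at 0.22, is open.

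The rest of the pathway was followed through 33 genes that act beside or after the complex. In SUM159 none was called under NIF in either population, in the fit without the replicate block, and the block was not applied to these genes. In SW620 3 were higher and 8 lower in ALDHbr cells, and 3 higher and 8 lower in ALDHneg cells, with medians of -0.07 and -0.07. Of all genes 43.3% and 45.1% were called in these comparisons, 21.9% and 22.7% lower, so the 8 of 33 that were lower were near the share of genes in general. The 3 of 33 that were higher were a smaller share than that of all 13953 genes, of which 2987 and 3114 were called higher. The genes that rose were ERCC1, FAN1 and MUS81 in both populations, 3 of the 7 crosslink nuclease genes. ERCC1, the partner of the nuclease ERCC4, rose from 59.9, 65.9 and 68.9 CPM under DMSO to 99.8, 103 and 111 CPM under NIF in ALDHbr cells, with a log2 fold change of 0.68 ± 0.07 (SE, adjusted p = 2.58e-06) and by 0.69 in ALDHneg cells. FAN1, a nuclease that binds ubiquitinated FANCD2, rose from 30.8, 31.1 and 33.3 CPM to 42.6, 46.0 and 48.1 CPM, at 0.52 ± 0.06 (SE, adjusted p = 1.25e-05) and by 0.50 in ALDHneg cells. For ERCC1 and FAN1 the NIF libraries lay above all DMSO libraries in both populations.

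The genes that fell in both populations were CENPX, FAAP24, USP1, TOPBP1, CHEK1, RPA1 and RPA2, joined by RFWD3 in ALDHbr and by RPA3 in ALDHneg cells. CENPX, which with CENPS forms a DNA-binding pair that partners FANCM, fell from 103, 123 and 127 CPM under DMSO to 71.7, 77.2 and 87.5 CPM under NIF in ALDHbr cells, with a log2 fold change of -0.58 ± 0.08 (SE, adjusted p = 6.97e-05), and its log2 fold change in ALDHneg cells was -0.55. RPA2, a subunit of the protein that coats single-stranded DNA, fell from 68.7, 78.0 and 79.0 CPM to 50.7, 55.1 and 58.5 CPM, at -0.46 ± 0.07 (SE, adjusted p = 9.7e-05), with -0.42 in ALDHneg cells. USP1 removes the ubiquitin from FANCD2, and CHEK1 encodes a checkpoint kinase. By role, of the 5 accessory proteins of the core complex 2 were lower in each population, of the 3 ubiquitin cycle genes 1, and of the 7 checkpoint genes 4 in ALDHbr and 5 in ALDHneg cells. Of the 8 homologous recombination genes, 1 was lower in ALDHbr and 0 in ALDHneg cells, and of the 3 translesion synthesis genes 0 in both. USP1 is also in the S phase list.

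**Figure D4:**
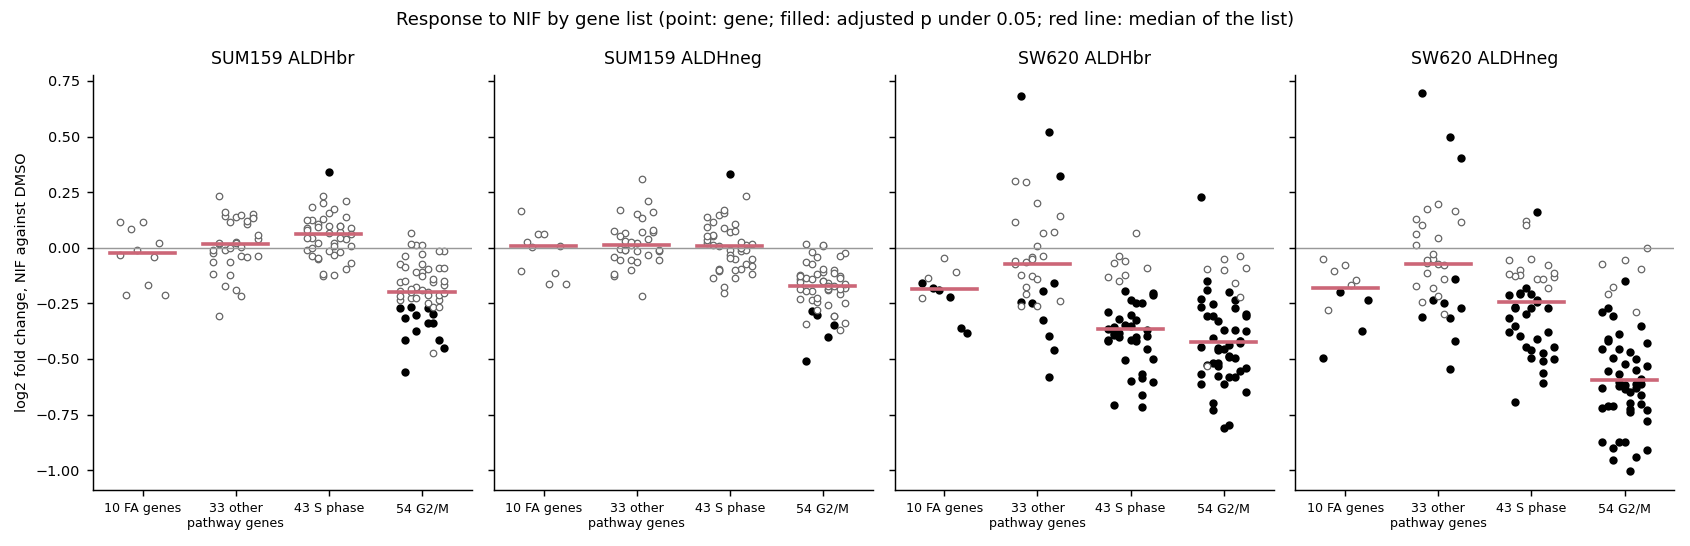
Log2 fold change under NIF against DMSO of the genes of 4 lists (the 10 genes, 33 other pathway genes, 43 S phase and 54 G2/M genes) in each population. Filled points passed the adjusted threshold of 0.05, and the red line is the median of the list. In SW620 the medians of the S phase (-0.37 and -0.24) and G2/M lists (-0.42 and -0.60) lie below those of the 10 genes (-0.19 and -0.18).

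STAT3 itself was called under NIF in no population by the edgeR test without the replicate block, and the alternatives were not recomputed for it. In SW620 STAT3 was at -0.04 ± 0.07 (SE, adjusted p = 0.692) in ALDHbr and -0.13 ± 0.07 (SE, adjusted p = 0.138) in ALDHneg cells, and in SUM159 at -0.18 ± 0.06 (SE, adjusted p = 0.146) and -0.15 ± 0.06 (SE, adjusted p = 0.238). The SUM159 libraries under NIF lay below those under DMSO in both populations. They were at 147.7 to 152 against 159.1 to 179.1 CPM in ALDHbr cells, and at 120.2 to 124.6 against 125.7 to 141.7 CPM in ALDHneg cells. Of all genes, 23.2% and 19.6% did not overlap in these comparisons. Between populations, STAT3 was higher in SUM159 ALDHbr cells under DMSO, at 0.31 ± 0.06 (SE, adjusted p = 0.00168), and under NIF, at 0.29 ± 0.06 (SE, adjusted p = 0.00354), and was not called in SW620. The STAT3 transcript does not report the phosphorylated protein, which was not measured here. FANCM and FANCD2, whose promoters hold the STAT letters, were among the genes called lower in SW620 ALDHneg cells, as were FANCL, whose window lacks them, and FANCI, whose window was not matched. In SW620 ALDHbr cells FANCD2 and FANCI were called lower, and FANCM, at -0.23, was not. FANCL, FANCF, FANCC and FANCA, whose searched windows lack the letters, were also called lower there. In SUM159 FANCM was at 0.11 and 0.17 and FANCD2 at -0.01 and 0.06, none of them called.

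Last, genes whose level varied most like that of the substrate pair were listed by Pearson correlation of log2 CPM over the 24 libraries, each line centred on its own mean, among 8533 genes. These values describe libraries that share groups, depth and culture, and carry no test. The gene most like FANCD2 was FANCI (r = 0.887 over 24 libraries, 0.762 within SUM159 and 0.905 within SW620), followed by C16orf70, GEMIN5, CCAR1 and COA7 (r from 0.852 to 0.863). Most like FANCI were GATA2 (r = 0.941), ESPL1, which encodes separase, MCM4, a subunit of the replicative helicase (0.933), CCAR1 and CS (lowest r = 0.925). Among the 10 genes, 44 of 45 pairs correlated positively over the 12 SW620 libraries (median r = 0.493, from -0.0147 to 0.905), and 25 of 45 over the 12 SUM159 libraries (median 0.0594, from -0.686 to 0.786).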

How the data were processed

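RNA from sorted cells was sequenced after a stranded total RNA preparation. Per the labels, reads were aligned with STAR to GRCh38. The counting tool, its annotation and its strand setting are not given in the sources used here. As deposited by the authors, the table holds raw counts of reads per gene, not normalised, for 24 libraries, and from these every value here was computed. The 3 libraries of a group are described as independent biological replicates, and replicates differed by more than sampling noise (chi-square per gene of 1.97 or more).

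Counts were filtered by expression, scaled by TMM and tested with edgeR 4.0.16 (R 4.3.3), by the quasi-likelihood F test at a Benjamini-Hochberg adjusted p of 0.05, in 1 fit per line of 12 libraries and 4 groups. Contrasts between lines used a fit of all 24 libraries. CPM levels were scaled over all 24 libraries, with a prior count of 2 where on a log2 scale, which differs from scaling within a line by at most 0.0113 (log2). Fold changes are on the log2 scale. The scripts were tested on simulated counts.

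The members and gene lists were chosen with earlier results of these data known. S phase and G2/M genes are the lists of the Seurat package. All 10 members were named in every comparison. Of the other pathway genes, the 2 highest and 2 lowest among those called are given with values, and the remaining called genes were named after their values were seen. Likeness to FANCI and FANCD2 was ranked among genes tested in both lines whose mean log2 CPM reached 3 in each. Positions and promoters are from RefSeq and transcript lengths from GENCODE.

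Replicate numbers come from the sample names. In SUM159 all 18 pairs of libraries with the same number deviated together from their group means (r from 0.126 to 0.452, against -0.278 to 0.0714 for 36 pairs with different numbers). Results for the members with the number as a block are given where they change a call or a count. Alternatives were DESeq2 1.42.0, RLE size factors, scaling by library size, no filter on low counts, the replicate block, a fit of all 24 libraries for the contrasts within a line, and each library left out in turn. They were recomputed for the members and for the share of all genes called. The other pathway genes, STAT3, ALDH1A1, the overlapping genes and the cell cycle lists were not recomputed under them.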

Additional observations from a re-analysis of the deposited data

Results flagged for a closer look

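The response to NIF differed between SW620 and SUM159, by edgeR's test of the difference of the log2 fold changes itself, for 4 genes. These were 2 of 10 in ALDHbr and 3 of 10 in ALDHneg cells, near the 23.1% and 22.4% of all genes called. FANCI differed in both sorted populations, by -0.39 in ALDHbr cells (adjusted p = 0.000313), where it was at -0.36 in SW620 and 0.02 in SUM159, and by -0.37 in ALDHneg cells (adjusted p = 0.000377), where it was at -0.37 and 0.01. FANCM differed by -0.65 in ALDHneg cells (adjusted p = 0.00824), at -0.49 in SW620 and 0.17 in SUM159. FANCD2 differed by -0.26 in ALDHneg cells (adjusted p = 0.0355), at -0.20 and 0.06, and FANCC by -0.26 in ALDHbr cells (adjusted p = 0.0375), at -0.18 and 0.08. The call was kept under 8 of 16 alternatives for FANCD2 and 5 of 16 for FANCC, and under all 16 for FANCI and FANCM. In the same contrast, 32 of 43 S phase genes were called lower in ALDHbr and 24 in ALDHneg cells, with none higher in either (medians -0.41 and -0.28). Of 54 G2/M genes, 23 were lower and 1 higher in ALDHbr cells (median -0.22), and 34 lower and 0 higher in ALDHneg cells (median -0.40). Their part in the differences of the 4 genes was not tested.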

How the results depend on the processing

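Under alternatives that kept all libraries, 583 recomputed log2 fold changes kept their direction and side of the threshold, 13 gained and 10 lost their call, and 6 reversed. With a library left out, 650 kept both, 7 gained and 50 lost their call, and 25 reversed. The counts of members called moved as follows. For SUM159 ALDHbr against ALDHneg under DMSO, 0 became 1 with DESeq2 or a fit of all 24 libraries and 2 with the replicate block, and under NIF 1 became 2 with DESeq2 or the block. The block changed no call in SUM159 beyond those of FANCA, FANCB and FANCI given with the results. For SW620 under NIF, 6 became 3 in ALDHbr cells without a filter, and 4 became 7 in ALDHneg cells with library-size scaling. For SW620 ALDHbr against ALDHneg, 0 became 1 with DESeq2 under DMSO and 1 under NIF. For the difference between lines in ALDHbr cells, 2 became 1 with RLE or no filter. In SW620 the replicate numbers did not pair the libraries (1 of 18 same-number correlations over 0.1, from -0.276 to 0.213), and the block left the counts of members called at 6 and 4 under NIF and 0 for both contrasts of the populations.

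The log2 fold change of FANCM between SW620 populations under NIF, 0.0098, became -0.000209 with RLE, -0.00429 without a filter and -0.000533 with DESeq2. With library-size scaling, SW620 against SUM159 became -0.0514 for FANCG in ALDHbr cells, and -0.0455 for FANCA and -0.0281 for FANCG in ALDHneg cells.

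Leaving out each library in turn gave 2 to 5 called members for NIF in SW620 ALDHbr cells and 1 to 3 in ALDHneg cells, 0 to 1 for both SUM159 population contrasts, 0 to 2 for that of SW620 under DMSO and 0 to 1 under NIF, and 1 to 2 for the difference between lines in ALDHbr cells. For SUM159 ALDHbr against ALDHneg under DMSO, the count was 1 (FANCB) without ALDHbr DMSO replicate 2. Log2 fold changes that changed sign were, for NIF in SUM159, FANCD2 in ALDHbr cells (-0.0207 to 0.000898) and, in ALDHneg cells, FANCB (-0.0569 to 0.0743), FANCC (-0.0263 to 0.0371) and FANCI (-0.00857 to 0.0359). Between SUM159 populations they were, under DMSO, FANCE (-0.0730 to 0.0359), FANCL (-0.165 to 0.00275) and FANCM (-0.0903 to 0.0406), and, under NIF, FANCE (-0.00479 to 0.0751) and FANCM (-0.167 to 0.0499). Between SW620 populations they were FANCG under DMSO (-0.0373 to 0.0519) and, under NIF, FANCB (-0.189 to 0.0398), FANCE (-0.0646 to 0.00578) and FANCM (-0.0995 to 0.170). For the difference between lines in ALDHbr cells, recomputed for FANCB, FANCC and FANCI and not for the other members, FANCB changed sign (-0.0385 to 0.192). None of these genes was called in the contrast concerned. Why these values moved was not tested.

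FANCB and FANCM, the genes with the lowest counts (106 to 457 and 153 to 1032 reads per library), had the widest intervals in SW620.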
